A study of Mus musculus with 9 samples.

Results

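The 7 genes described here encode the auxiliary subunits of voltage-gated calcium channels: the alpha2delta subunits Cacna2d1, Cacna2d2 and Cacna2d3 and the beta subunits Cacnb1, Cacnb2, Cacnb3 and Cacnb4. They were chosen by name, to include the gabapentinoid target, and all 7 were among the 21536 genes of a Dropseq count table from mouse trigeminal ganglion, the ganglion that holds the sensory neurons of the head. The cells came from wild-type FVB/N mice in 9 runs, and the labels give an age of 3 to 6 weeks. For the Dropseq runs the paper's methods give a lower upper age than the labels, and mice of both sexes. Neurons were enriched on a Percoll gradient and by depletion of non-neuronal cells, and the animals of a run were pooled. No treatment or genotype was compared, and the columns of the table do not name the run. All cells therefore form 1 pooled sample, so the groups of neurons below could not be tested against each other.

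Voltage-gated calcium channels are built around an alpha1 pore subunit, whose gene sets the type of current. Beta subunits sit on the cytoplasmic side, bind the alpha1 subunit and promote its delivery to the membrane, while alpha2delta subunits are anchored on the outer face and raise the number of channels at the cell surface and at presynaptic terminals. In sensory neurons the channels at central terminals trigger transmitter release, and the alpha2delta-1 protein is the main target of gabapentin and pregabalin, drugs used against neuropathic pain. The alpha2delta-2 protein also binds these drugs, whereas alpha2delta-3 is not regarded as a target.

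Drug binding depends on an arginine in a short stretch just before the metal ion site of the alpha2delta protein. The coding sequence of this stretch is shown for the 3 genes because Cacna2d3 differs from the other genes in it. Arginine codons are in capitals.
Cacna2d1: tatgatgtaCGCAGAAGAccatggtacatc
Cacna2d2: tacgatgtcAGAAGACGAccctggtatata
Cacna2d3: tttgactgcAGGaacAGAaaatggtacatc
Cacna2d1 and Cacna2d2 each held a run of 3 arginine codons here, and Cacna2d3 held 2 that were not adjacent. Cacna2d3 kept arginine codons at both ends of the run and differed at the middle codon (aac). The sequences alone therefore do not show that Cacna2d3 lacks the arginine on which binding depends. The stretches are coding, and each spans a junction of 2 exons in the GENCODE M21 annotation of GRCm38, which is the mm10 build named in the submitters' processing notes. In Cacna2d1, on the plus strand, codons 236 to 245 lie in exon 8 (chr5:16264305-16264327) and exon 9 (chr5:16266687-16266693) of 38. In Cacna2d2, also on the plus strand, codons 277 to 286 lie in exon 8 (chr9:107512338-107512360) and exon 9 (chr9:107513054-107513060) of 39. In Cacna2d3, on the minus strand, codons 239 to 248 lie in exon 7 (chr14:29347122-29347144) and exon 8 (chr14:29347025-29347031) of 38. The whole genes span chr5:15934691-16374511 (Cacna2d1), chr9:107399612-107529343 (Cacna2d2), chr14:28904943-29721864 (Cacna2d3), chr11:98001508-98023034 (Cacnb1), chr2:14603088-14987908 (Cacnb2), chr15:98630840-98644529 (Cacnb3) and chr2:52428320-52676831 (Cacnb4).

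A unique molecular identifier (UMI) marks 1 captured transcript, and the table held 30491529 UMIs in 6997 cell barcodes, with 1000 to 190815 UMIs per barcode. A barcode was taken as a neuron when it had 500 to 7500 genes, a UMI of at least 3 of 6 neuronal genes (Tubb3, Scn9a, Snap25, Nefl, Nefm and Uchl1) and none of the epithelial gene Epcam. This gave 3855 neurons with a median of 3014 UMIs. The neurons were grouped by the first rule they met: Trpm8 at 2 or more UMIs (244 neurons, cold sensing), Mrgprd at 2 or more (379, noxious mechanical), Mrgpra3 at 1 or more (49, itch), Nppb at 2 or more (57, itch), Cd34 at 1 or more (320, low-threshold C-fibres), Nefh at 5 or more with Trpv1 at 0 (450, large neurons) and Calca at 5 or more with Trpv1 at 1 or more (916, peptidergic nociceptors). The other 1440 neurons met no rule and were shallower, with a median of 1826.5 UMIs against 3406 to 5835.5 in the groups. None of the 7 subunit genes takes part in these rules. All 15 marker genes that the rules did not use, such as Foxp2, Lpar3, Sst and S100b, were highest in their own group. Of the grouped neurons 349 (14.5%) met more than 1 rule, no doublet caller was run, and 6 barcode sequences were each listed under 2 columns of the table. Markers of glia held 0.00423% to 0.0205% of the UMIs of a group and those of red blood cells 0.315% to 0.619%. Both were higher in the ungrouped neurons, at 0.233% and 1.42%, as were pituitary markers at 0.384%, and levels over all 3855 neurons include these.

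The level of a gene is its share of all UMIs of a group, scaled to 1000000 (CPM), with exact Poisson 95% intervals in parentheses, and shares of neurons with exact Clopper-Pearson intervals. Both cover counting error only and not the spread between animals or runs. Because Dropseq counts transcript ends, UMIs of different genes were set side by side without division by length. Over all 3855 neurons Cacna2d1 was the most abundant of the 7, at 357 CPM (349 to 365), and ranked 494 of 20044 genes seen in neurons. The next were Cacnb3 at 187 CPM (181 to 193), Cacnb4 at 158 CPM (153 to 164) and Cacna2d2 at 131 CPM (127 to 136). Cacna2d3 stood at 53.0 CPM (49.9 to 56.2) and Cacnb1 at 23.5 CPM (21.4 to 25.6). Cacnb2, the main beta subunit of the heart, had 100 UMIs in all neurons, 4.78 CPM (3.89 to 5.81). The fourth alpha2delta gene, Cacna2d4, had no UMI in any of the 3855 neurons, which allows a level of up to 0.143 CPM (3 UMIs of the total).

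Each group was compared with the other grouped neurons, and a ratio of at least 2-fold was counted for genes with 10 or more CPM over all neurons. Of the 9188 such genes 6 were members, since Cacnb2 fell below the minimum. In Calca Trpv1 neurons 2 members were higher (4.72% of all genes) and 1 was lower (6.29% of all genes). In Cd34 neurons 1 member was higher (3.43% of all genes) and none was lower (7.54% of all genes). In Nefh neurons 2 members were lower (6.88% of all genes) and none was higher (4.22% of all genes). The Trpm8, Mrgprd and Nppb neurons each had 1 lower member, beside 11.6%, 11.7% and 14.3% of all genes, and no higher member, beside 2.8%, 5.26% and 4.19%. In Mrgpra3 neurons no member passed 2-fold, beside 4.36% of genes that were higher and 14.4% that were lower. As a mean over neurons of each neuron's CPM, 4 further ratios were past 2-fold lower, those of Cacnb4 in Mrgpra3 (2.31-fold) and Calca Trpv1 neurons (2.04-fold), Cacnb1 in Nefh neurons (2.24-fold) and Cacna2d1 in Cd34 neurons (2.07-fold). Among neurons that met exactly 1 rule, Cacnb4 was 2.08-fold higher in Mrgprd neurons and Cacnb1 was 2.24-fold lower in Nefh neurons. In pooled levels over the 7 groups the calls came to 3 of 42 ratios higher (7.14%, against 4.14% for all genes) and 6 lower (14.3%, against 10.4%). The median size of the log2 ratio was 0.44 over the members and 0.33 over all genes. By the spread of its log2 levels over the groups, Cacnb4 lay at percentile 93.4 of the genes compared, Cacna2d3 at 89.8, Cacna2d2 at 85.8, Cacna2d1 at 83.3, Cacnb1 at 73.3 and Cacnb3 at 46.2.

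**Figure D1:**
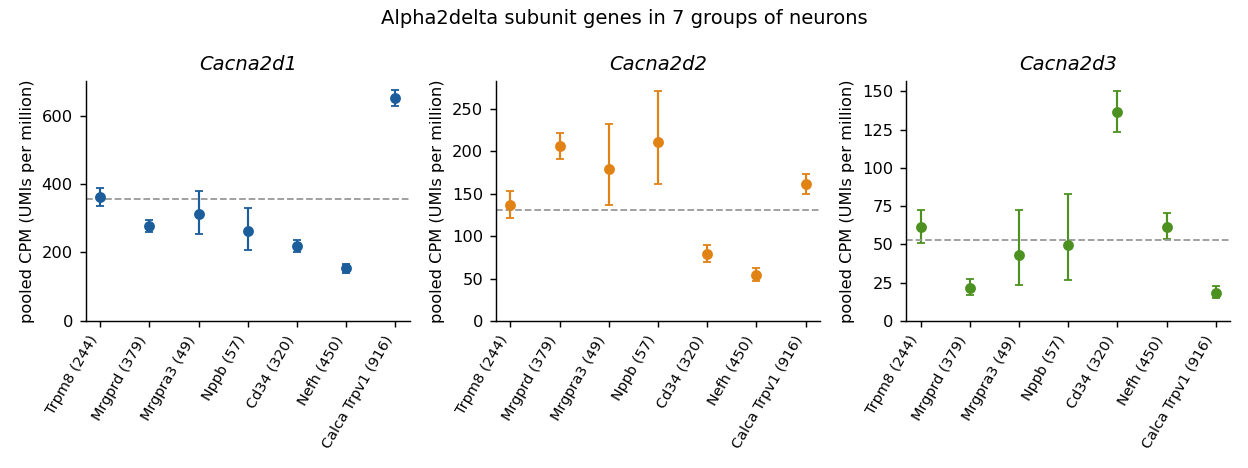
Pooled CPM of the 3 alpha2delta genes (vertical axis, scaled separately for each gene) in the 7 groups of neurons, with the number of neurons in brackets. Points are pooled levels, bars exact Poisson 95% intervals and dashed lines the level over all neurons. Cacna2d1 peaked in Calca Trpv1 neurons (652 CPM), Cacna2d3 in Cd34 neurons (136 CPM), and Cacna2d2 was lowest in Nefh neurons (54.5 CPM).

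Cacna2d1 was highest in Calca Trpv1 neurons and lowest in Nefh neurons. In Calca Trpv1 neurons, which combine the heat and capsaicin receptor Trpv1 with the peptide gene Calca, it reached 652 CPM (629 to 675). It stood at 363 CPM (337 to 389) in Trpm8 neurons, at 312 CPM (255 to 379.7) in Mrgpra3 neurons, at 278 CPM (260.1 to 297) in Mrgprd neurons and at 264 CPM (208 to 331) in Nppb neurons. The lower end was formed by Cd34 neurons at 218 CPM (202 to 236) and Nefh neurons at 154 CPM (141 to 167). The top group stood 1.80 (1.66 to 1.95)-fold above Trpm8 neurons, the next in order, and 4.24-fold (3.87 to 4.66) above Nefh neurons. The 4 middle steps of the order, from Trpm8 to Cd34 neurons, were each within counting error. Against all other grouped neurons Cacna2d1 was 2.67-fold (2.54 to 2.81) higher in Calca Trpv1 neurons and 2.66-fold (2.43 to 2.91) lower in Nefh neurons. Both differences stayed past 2-fold under all 9 other settings tried.

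The share of neurons with a Cacna2d1 UMI followed the same order at its ends, 83.4% (80.8 to 85.8) in Calca Trpv1 neurons and 44.9% (40.2 to 49.6) in Nefh neurons. After each neuron was thinned at random to 1000 UMIs, so that depth was equal, the shares were 47.2% and 15.6%. In red blood barcodes, which should lack the gene, the share was 0.549% unthinned and 0.412% thinned, with a median of 1259 UMIs against 3534.5 in Calca Trpv1 neurons. Markers of red blood cells were also highest in Calca Trpv1 neurons, at 0.619% of UMIs with all 5 genes of the list seen, and their part in the level of Cacna2d1 was not tested. Red blood barcodes held 4.01 CPM of Cacna2d1. Each group was also divided by its own depth into 4 bins of equal size. Cacna2d1 ranged from 627 to 717 CPM in the bins of Calca Trpv1 neurons. In those of Nefh neurons it ranged from 143 to 185 CPM. The top bin held 6373 to 44974 UMIs in Calca Trpv1 and 8355 to 52579 in Nefh neurons, so the bins do not compare the groups at matched depth.

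Cacna2d2, the alpha2delta gene mutated in the ataxic and epileptic ducky mouse, was lowest in the 2 groups with markers of touch. It stood at 54.5 CPM (46.9 to 62.9) in Nefh neurons and at 79.2 CPM (69.6 to 89.7) in Cd34 neurons. It was higher in Trpm8 neurons at 137 CPM (122 to 154) and in Calca Trpv1 neurons at 161 CPM (150.3 to 173). Higher values stood in Mrgpra3 neurons at 179 CPM (136 to 232), Mrgprd neurons at 206 CPM (191 to 222) and Nppb neurons at 211 CPM (161 to 272). These 3 could not be put in order, and Mrgpra3 neurons could not be set apart from Calca Trpv1 neurons, since each of these steps was within counting error. Among neurons that met exactly 1 rule the level in Mrgpra3 neurons was below those in Calca Trpv1 and Trpm8 neurons. Against all other grouped neurons Cacna2d2 was 2.78-fold (2.39 to 3.25) lower in Nefh neurons, and 1.79-fold (1.63 to 1.96) higher in Mrgprd neurons, which is under 2-fold. After thinning, 20.6% of Mrgprd neurons and 6.67% of Nefh neurons had a UMI, against 0.137% of red blood barcodes.

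Cacna2d3, which in mice and flies is required for normal responses to noxious heat, had the widest range of the alpha2delta genes and its peak in Cd34 neurons. Its level there was 136 CPM (124 to 150.0), and 52.8% (47.2 to 58.4) of these neurons had a UMI. Nefh neurons at 61.5 CPM (53.5 to 70.5) and Trpm8 neurons at 61.3 CPM (51.2 to 72.8) came next and did not differ beyond counting error. When each neuron was thinned to 1000 UMIs, Trpm8 neurons stood at 102 CPM, between Cd34 neurons at 116 and Nefh neurons at 64.4 CPM. Nppb neurons at 49.3 CPM (27.0 to 82.7) and Mrgpra3 neurons at 43.3 CPM (23.7 to 72.7) rested on 14 UMIs each, and on thinning Mrgpra3 neurons fell to 20.4 CPM, the level of 1 UMI. The lowest levels were 21.7 CPM (16.9 to 27.4) in Mrgprd neurons and 18.3 CPM (14.7 to 22.5) in Calca Trpv1 neurons. Cd34 neurons thus stood 7.46-fold (5.92 to 9.49) above Calca Trpv1 neurons, the reverse of the order of Cacna2d1 in these groups. Against all other grouped neurons Cacna2d3 was 3.69-fold (3.24 to 4.20) higher in Cd34 neurons, 2.87-fold (2.25 to 3.71) lower in Mrgprd neurons and 3.77-fold (3.03 to 4.74) lower in Calca Trpv1 neurons. These 3 differences stayed past 2-fold under all 9 other settings. Markers of other cells were also highest in Cd34 neurons, at 0.0901% of UMIs for the pituitary list (0.0217% to 0.0589% in the other groups), 0.0205% for glia (0.00423% to 0.0163%) and 0.00258% for the endothelial list (0.000118% to 0.000704%), with every gene of these lists seen. Cd34 itself is also a gene of endothelial cells. Pituitary barcodes held 1.96 CPM of Cacna2d3, and none of its UMIs was seen in glia or in 74 endothelial barcodes, where a count of 0 allows up to 15.2 and 24.2 CPM. Without the 7 Cd34 neurons in which endothelial or pituitary markers passed 0.3% or 5% of UMIs the level was 136 CPM (124 to 150.0). By bins of depth the gene ranged from 101 to 152 CPM in Cd34 neurons and from 16.4 to 19.5 CPM in Calca Trpv1 neurons. The protein-coding gene Lrtm1 overlaps Cacna2d3 on the opposite strand, and whether counting used the strand is not given in the sources used here.

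The 3 genes together reached 832 CPM (806 to 858) in Calca Trpv1 neurons and 269.7 CPM (253 to 288) in Nefh neurons, with the other groups between 434 and 561 CPM. Cacna2d1 gave the most alpha2delta UMIs in each of the 7 groups. Its share was 78.4% (77.1 to 79.7) in Calca Trpv1 neurons, 64.6% (61.8 to 67.3) in Trpm8 neurons and between 50.3% and 58.4% in the others. Cacna2d2 gave 40.7% (38.4 to 43.2) of the UMIs in Mrgprd neurons and 40.3% (32.3 to 48.6) in Nppb neurons. In Nppb neurons the lead of Cacna2d1 rested on 75 UMIs against 60, and it passed to Cacna2d2 under 3 of the 9 other settings. In Mrgprd neurons the lead passed to Cacna2d2 when neurons were thinned to 1000 UMIs. Cacna2d3 gave 31.4% (28.9 to 34.0) in Cd34 neurons and 22.8% (20.1 to 25.7) in Nefh neurons, but only 2.20% (1.77 to 2.70) in Calca Trpv1 neurons. The genes with the codon run shown above, Cacna2d1 and Cacna2d2, therefore supplied nearly all alpha2delta UMIs of Calca Trpv1 neurons and a smaller part in Cd34 neurons.

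**Figure D2:**
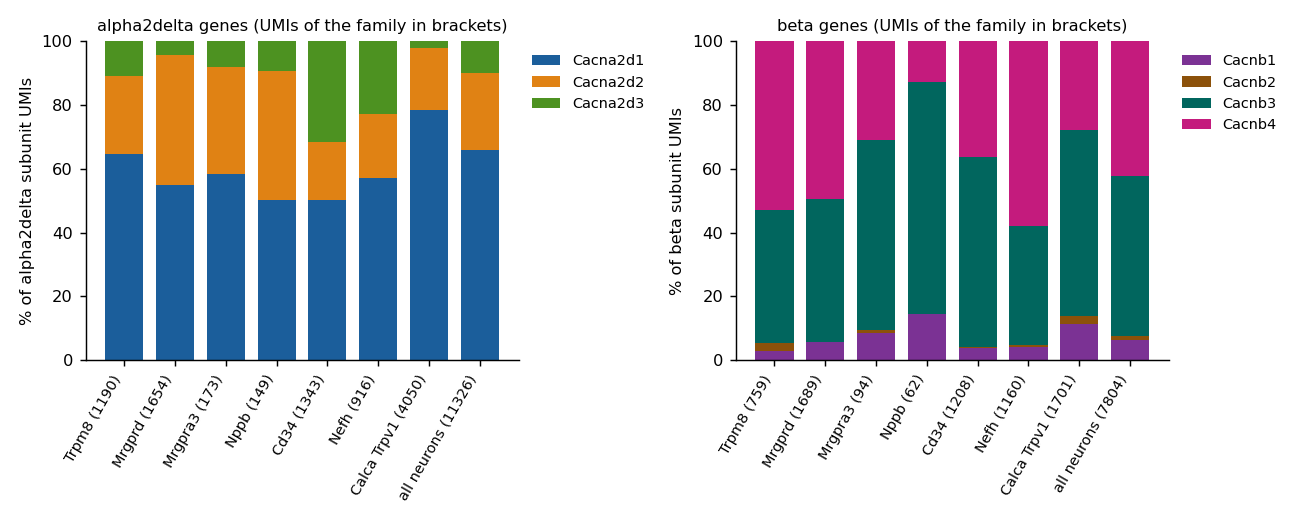
Percent of the alpha2delta UMIs (left) and beta UMIs (right) given by each gene in the 7 groups of neurons and in all neurons, with the number of UMIs of the family in brackets. Cacna2d3 makes up 31.4% of the left bar of Cd34 neurons and 2.20% of that of Calca Trpv1 neurons, and Cacnb4 makes up 57.9% of the right bar of Nefh neurons and 12.9% of that of Nppb neurons.

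Cacnb3, a beta subunit typical of neurons and smooth muscle, was the most even of the members across the groups. It was highest in Mrgprd neurons at 232 CPM (216 to 249) and Cd34 neurons at 232 CPM (215 to 249), which did not differ beyond counting error. Calca Trpv1 neurons followed at 203 CPM (191 to 217), Mrgpra3 neurons at 173 CPM (131 to 225) and Nppb neurons at 158 CPM (116 to 212). Trpm8 neurons stood at 149.9 CPM (134 to 167) and Nefh neurons, the lowest, at 127 CPM (115 to 139.8). The full range was only 1.83-fold (1.62 to 2.06), and no group was 2-fold away from the others. After thinning a Cacnb3 UMI was seen in 12.3% (Nppb) to 23.0% (Mrgprd) of the neurons of a group.

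Cacnb4, the beta gene disrupted in the ataxic lethargic mouse, had its widest difference between Mrgprd and Nppb neurons. It was highest in Mrgprd neurons at 255 CPM (238 to 273), 1.29 (1.16 to 1.43)-fold above the next group, Nefh neurons, at 198 CPM (183 to 213). Trpm8 neurons stood at 189 CPM (171 to 208) and Cd34 neurons at 142 CPM (129 to 156). Calca Trpv1 neurons at 97.1 CPM (88.6 to 106) and Mrgpra3 neurons at 89.7 CPM (60.1 to 129) did not differ beyond counting error. Nppb neurons were lowest at 28.2 CPM (12.2 to 55.5). There the gene gave 8 UMIs in 3 of 57 neurons, a share of 5.26% (1.10 to 14.6), against 68.1% of Mrgprd neurons and 30.3% of Calca Trpv1 neurons. The median depth was 3406, 5371 and 3534.5 UMIs, and after thinning the shares were 1.75%, 22.7% and 8.19%, against 0.412% of red blood barcodes. Against all other grouped neurons Cacnb4 was 5.92-fold (3.00 to 13.7) lower in Nppb neurons. Without the 3 neurons that held these UMIs no UMI was left, and the mean over neurons of each neuron's CPM was 6.73. Olfactory markers were highest in Nppb neurons, at 0.00634% of UMIs (0.000566% to 0.00345% in the other groups), and 1 neuron was past the limit of the olfactory pool. Olfactory barcodes held 5.71 CPM of Cacnb4 from 1 UMI, and the part of such UMIs in the level of Nppb neurons was not tested. In the Mrgpra3 neurons, the other small group of itch markers, 29 UMIs were seen and 24.5% (13.3 to 38.9) of the 49 neurons had a UMI. Without the 3 Mrgpra3 neurons richest in the gene the level was 55.1 CPM. Among the 5 groups of more than 200 neurons the range was 2.62-fold (2.34 to 2.94), from Mrgprd to Calca Trpv1 neurons. This is narrower than that of any alpha2delta gene or of Cacnb1 in these groups, so the place of Cacnb4 as the least even of the 6 members compared rests on the Nppb neurons. Glia barcodes also held Cacnb4, as described below, and in neurons without a UMI of the myelin gene Mbp it stood at 273 CPM in Mrgprd, 208 in Nefh, 193 in Trpm8, 138 in Cd34, 121 in Mrgpra3, 94.9 in Calca Trpv1 and 24.8 in Nppb neurons. Mrgpra3 and Calca Trpv1 neurons thereby changed places.

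Cacnb1, best known as the beta subunit of skeletal muscle, was low in all groups. It was highest in Calca Trpv1 neurons at 39.0 CPM (33.7 to 45.0), followed by Nppb neurons at 31.7 CPM (14.5 to 60.2), Mrgprd neurons at 29.0 CPM (23.5 to 35.5) and Mrgpra3 neurons at 24.8 CPM (10.7 to 48.8). Cd34 neurons held 15.2 CPM (11.2 to 20.2), Nefh neurons 13.5 CPM (9.92 to 18.1) and Trpm8 neurons 9.90 CPM (6.13 to 15.1). The top place passed to Nppb neurons in neurons that met exactly 1 rule and without the deepest 5% of each group, and to Mrgpra3 neurons, at 61.2 CPM, on thinning to 1000 UMIs. Thinning also put Nefh neurons lowest, at 8.89 CPM, with Trpm8 neurons at 16.4 and Cd34 neurons at 25 CPM. No step between neighbours in this order was beyond counting error, but its ends were, by 3.94-fold (2.51 to 6.51). Against all other grouped neurons Cacnb1 was 2.16-fold (1.77 to 2.63) higher in Calca Trpv1 neurons and 2.62-fold (1.69 to 4.28) lower in Trpm8 neurons. The first of these fell to 1.77-fold when each neuron was thinned to 1000 UMIs, and the second stayed past 2-fold under all 9 other settings.

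Cacnb2 was at the limit of detection. Its 82 UMIs in grouped neurons lay mostly in Calca Trpv1 neurons, with 47 UMIs and 9.65 CPM (7.09 to 12.8), and in Trpm8 neurons, with 19 UMIs and 8.96 CPM (5.39 to 14.0). Nefh neurons had 10 UMIs, Cd34 neurons 4, and Mrgprd and Mrgpra3 neurons 1 each. No UMI was seen in the 57 Nppb neurons, and at their depth a count of 0 allows a level of up to 10.6 CPM. Mrgprd neurons, with 3271684 UMIs, held 0.306 CPM (0.00774 to 1.70), and Calca Trpv1 neurons stood 31.6-fold (5.40 to 1273) above this level, which rests on 1 UMI. The group with the highest level changed under 3 of the 9 other settings, to Trpm8 or Nefh neurons.

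**Figure D3:**
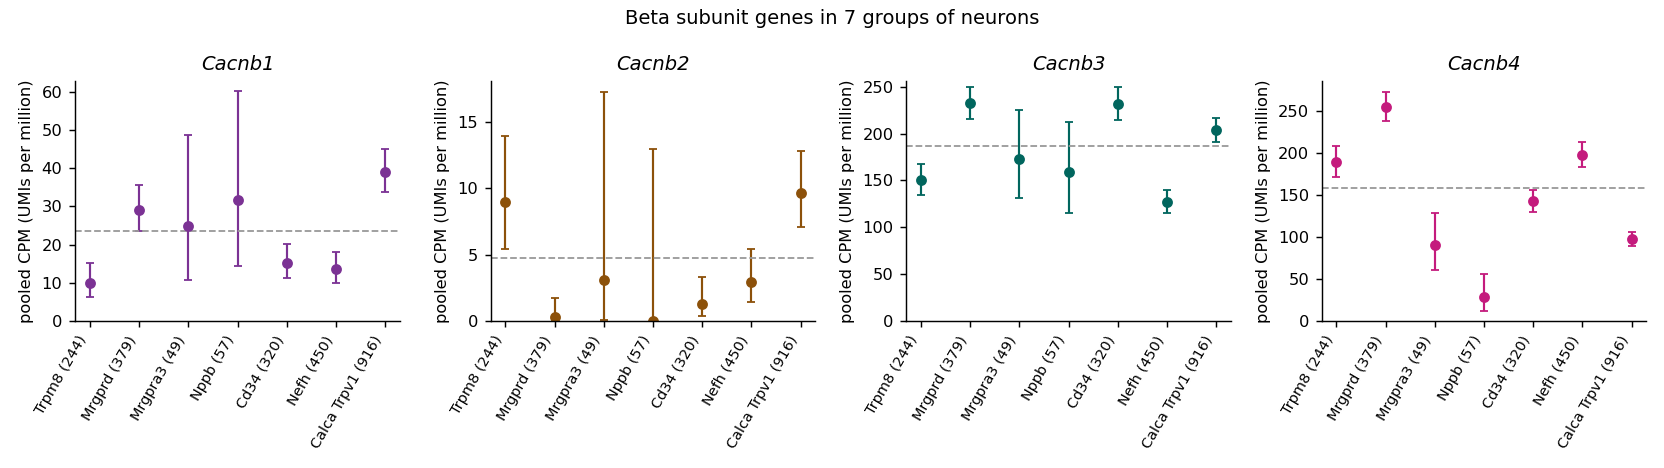
Pooled CPM of the 4 beta genes (vertical axis, scaled separately for each gene) in the 7 groups of neurons, with the number of neurons in brackets. Points are pooled levels, bars exact Poisson 95% intervals and dashed lines the level over all neurons. Cacnb3 spans 127 to 232 CPM, while Cacnb4 spans 28.2 CPM in Nppb neurons to 255 CPM in Mrgprd neurons.

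The beta genes together were highest in Mrgprd neurons at 516 CPM (492 to 541) and lowest in Nppb neurons at 218 CPM (167 to 279.9). Calca Trpv1 neurons, with the most alpha2delta UMIs, had a beta total of 349 CPM (333 to 366), close to that of Nefh neurons at 342 CPM (322 to 362). Cacnb3 and Cacnb4 together gave most beta UMIs in every group, but which of them led differed. Cacnb4 led in Nefh neurons with 57.9% (55.0 to 60.8), in Trpm8 neurons with 52.8% (49.2 to 56.4) and in Mrgprd neurons with 49.3% (46.9 to 51.7). In Mrgprd neurons Cacnb3 gave 45.0% (42.6 to 47.4), and the intervals of these genes overlap. Cacnb3 led in Cd34 neurons with 59.4% (56.5 to 62.1), in Calca Trpv1 neurons with 58.3% (55.9 to 60.6), in Mrgpra3 neurons with 59.6% (49.0 to 69.6) and in Nppb neurons with 72.6% (59.8 to 83.1). In Trpm8 neurons the lead passed to Cacnb3 when neurons that met more than 1 rule were left out, and the other 6 leads of the beta genes held under all 9 other settings. Cacnb1 gave 11.2% (9.71 to 12.8) of the beta UMIs of Calca Trpv1 neurons and 2.77% (1.72 to 4.20) of those of Trpm8 neurons.

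Levels also differed inside the 3 groups that were split by a further gene. Nefh neurons with 5 or more UMIs of Calca (89 neurons) were compared with those below (361). Cacna2d1 stood at 295 CPM (261 to 332) in the Calca-rich neurons and at 101 CPM (88.9 to 114) in the rest, a ratio of 2.91 (2.44 to 3.47). Cacna2d3 went the other way, at 24.9 CPM (15.8 to 37.4) and 75.2 CPM (64.8 to 86.8), so that the rest stood 3.02 (1.95 to 4.88)-fold above the Calca-rich neurons. Trpv1 was at 0 in all of these neurons by the rule. A count of 0 can also be a missed transcript, since the paper states that Dropseq misses moderately expressed genes in part of the cells. Whether the Calca-rich neurons included neurons that express Trpv1 was not tested. In this split 1 member was past 2-fold higher and 1 lower, beside 4.88% and 5.8% of all genes. The median depth was 6021 UMIs in the Calca-rich neurons and 3789 in the rest. Cacnb4 differed by less, with a ratio of 0.743 (0.614 to 0.894), and the interval of Cacnb3 included 1, at 1.08 (0.868 to 1.33).

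Trpm8 neurons with 5 or more UMIs of Nefh (172) were set against those below (72). No member passed 2-fold (10.3% of all genes were higher and 6.95% lower). Cacnb3 was lower in the Nefh-rich neurons, at 139.9 CPM (123 to 158) against 215 CPM (164 to 276), a ratio of 0.651 (0.491 to 0.876). Cacna2d1 had a ratio of 1.28 (1.02 to 1.62), and the intervals of the other members compared included 1. The Nefh-rich neurons were deeper, with a median of 7638 UMIs against 2730. Calca Trpv1 neurons with a UMI of the irritant receptor gene Trpa1 (437) were set against those without (479). Cacna2d3 was low on both sides, at 23.6 CPM (18.2 to 30.2) and 11.6 CPM (7.49 to 17.1), a ratio of 2.04 (1.27 to 3.38). It was the only member past 2-fold higher, beside 1.78% of all genes, and none was lower, beside 1.9%. Cacnb4 had a ratio of 1.52 (1.25 to 1.85) and Cacna2d1 of 1.22 (1.14 to 1.31). Median depth was 4319 UMIs with Trpa1 and 3091 without.

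**Figure D4:**
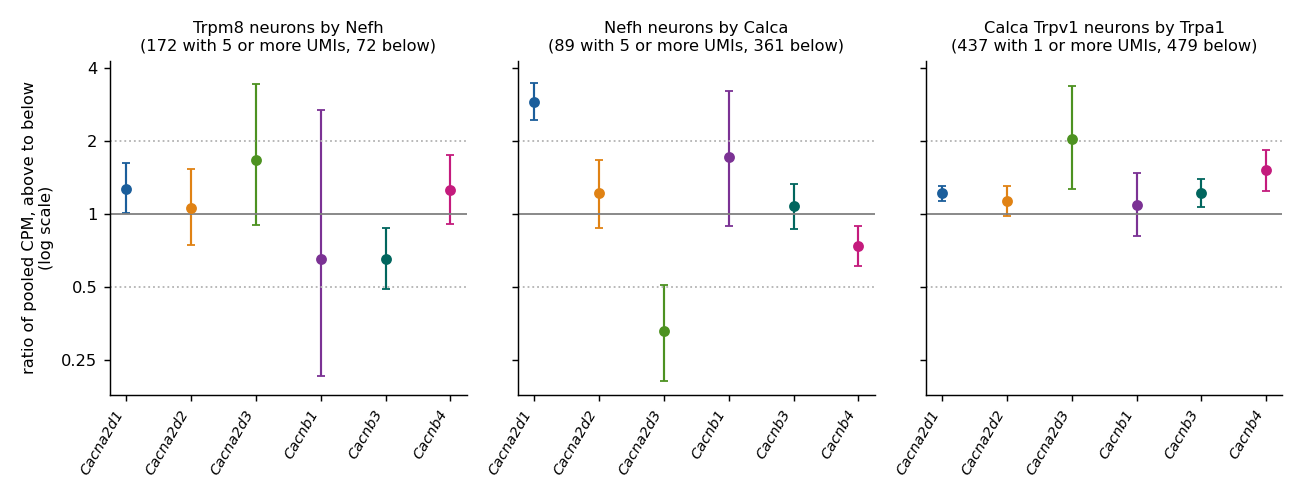
Ratio of pooled CPM between neurons at or above a UMI limit of a further gene and those below it, on a log scale, for 6 subunit genes in 3 groups of neurons. Points are ratios, bars exact 95% intervals for counting error, the solid line no difference and dotted lines 2-fold. In Nefh neurons Cacna2d1 lies at 2.91 and Cacna2d3 at 0.331, while in Trpm8 neurons no gene lies past 2-fold.

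Many neurons held UMIs of several subunit genes. At least 1 alpha2delta UMI was seen in 84.1% (82.6 to 85.5) of the 2415 grouped neurons and at least 1 beta UMI in 75.4% (73.6 to 77.1). After thinning to 1000 UMIs these shares were 42.9% and 32.9%, against 0.687% and 1.51% of red blood barcodes and 0.98% and 26.5% of glia barcodes. The median depth was 4405 UMIs in grouped neurons, 1259 in red blood and 1598 in glia barcodes. Of the grouped neurons 922 had UMIs of 1 alpha2delta gene, 853 of 2 and 256 of all 3. For the beta genes 911 had UMIs of 1 gene, 703 of 2, 198 of 3 and 9 of all 4. Cacna2d1 and Cacna2d2 were both seen in 945 neurons (39.1%), and Cacnb3 and Cacnb4 in 768 (31.8%). Cacna2d1 and Cacnb3, the most abundant gene of each family, were both seen in 1090 neurons (45.1%), and Cacna2d2 and Cacna2d3 in 291 (12.0%). These counts rise with depth and were not tested.

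The members were then set beside barcodes that were not neurons, pooled by the share of their UMIs from marker genes. Cacna2d1 had no UMI in 102 glia barcodes, which allows a level of up to 15.2 CPM (3 UMIs of the total), and stood at 4.01 CPM from 4 UMIs in 728 red blood barcodes. The level in grouped neurons was 359 CPM, and the ratio of neurons to red blood barcodes was 89.5-fold (34.9 to 329). Cacna2d2 and Cacna2d3 were as sparse, with 1 and 0 UMIs in glia barcodes. Cacnb4 was the exception, at 258 CPM (192 to 339) in glia barcodes, where 35.3% (26.1 to 45.4) had a UMI, against 164 CPM in grouped neurons. In red blood barcodes Cacnb4 stood at 5.01 CPM (1.63 to 11.7). Cacnb3 was at 25.3 CPM (8.20 to 58.9) in glia barcodes. Of the 6 members compared, 5 had a ratio of at least 2 between neurons and glia barcodes, beside 40.9% of all genes. For Cacnb1 this rested on 1 UMI in glia barcodes, and the interval of its ratio of 4.74-fold (0.847 to 188) included 1. All 6 were higher than in red blood barcodes, beside 84.7%.

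**Figure D5:**
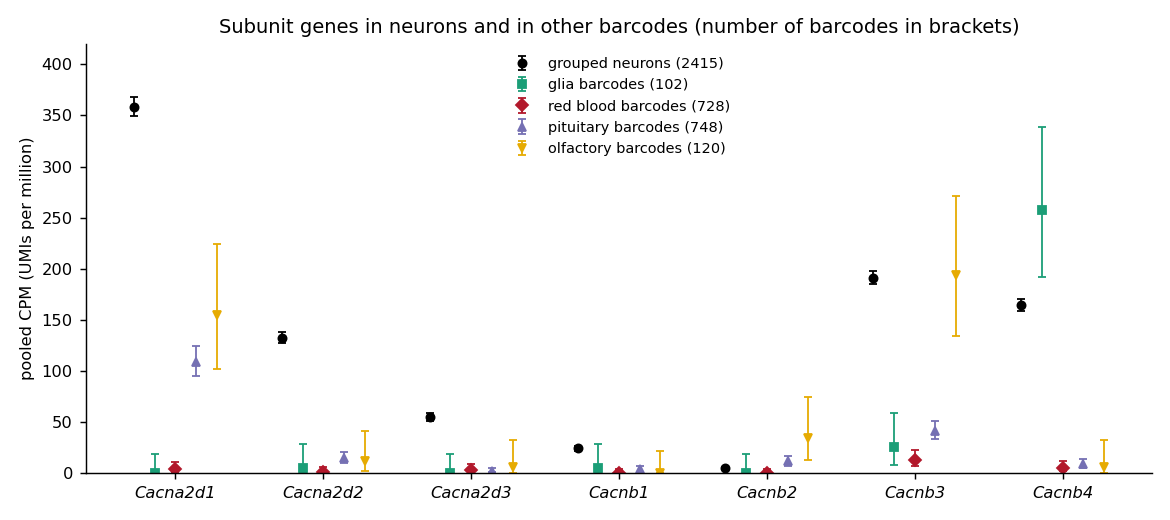
Pooled CPM of the 7 subunit genes in grouped neurons and in 4 pools of other barcodes, with the number of barcodes in brackets. Points are pooled levels and bars exact Poisson 95% intervals. Cacnb4 in glia barcodes (258 CPM) and Cacnb3 in olfactory barcodes (194 CPM) reach the levels of neurons, while Cacna2d1 is highest in neurons (359 CPM).

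Other pools of barcodes came from tissue outside the neurons of the ganglion. In 748 barcodes rich in the pituitary hormone genes Gh, Prl, Pomc and Cga, Cacna2d1 stood at 109 CPM (95.1 to 124), Cacnb3 at 41.2 CPM (32.9 to 51.0) and Cacnb2 at 11.3 CPM (7.16 to 16.9). All 6 members compared were at least 2-fold higher in grouped neurons than in pituitary barcodes, beside 40.5% of all genes, and Cacnb2, which was not among them, was 2.39-fold higher in pituitary barcodes. In 120 barcodes rich in the olfactory genes Omp and Stoml3, Cacnb3 at 194 CPM (135 to 271) was the highest beta gene, and Cacna2d1 stood at 154 CPM (102 to 224). There Cacna2d1, Cacna2d2, Cacna2d3 and Cacnb4 were at least 2-fold lower than in grouped neurons, beside 35.8% of all genes. The calls of Cacna2d2, Cacna2d3 and Cacnb4 rested on 2, 1 and 1 UMIs in olfactory barcodes. The lower bounds of the ratios of Cacna2d1, 2.33-fold (1.60 to 3.53), and Cacna2d3, 9.57-fold (1.71 to 378), are under 2. Cacnb1 had no UMI in these barcodes, and at 3 UMIs the level in neurons would be 1.40-fold higher. Cacnb3 had a ratio of neurons to olfactory barcodes of 0.984 (0.703 to 1.42).

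The partners of these subunits were followed through a list of 37 genes of calcium channel complexes, all of which are in the table. Of these, 14 reached 10 CPM over all neurons. Among the alpha1 pore genes Cacna1b, which encodes the N-type channel, was the most abundant at 159 CPM, followed by Cacna1a (P/Q-type) at 37.0 and Cacna1h (T-type) at 23.4. Cacna1b was within 2-fold of the other neurons in every group, at 103 CPM in Trpm8 neurons, 124 in Cd34, 137 in Nefh, 155 in Mrgpra3, 166 in Nppb, 196 in Mrgprd and 198 in Calca Trpv1 neurons. Cacna1a was also within 2-fold everywhere. Cacna1h was 2.91-fold (2.35 to 3.59) higher in Cd34 neurons, the group with the most Cacna2d3, and 17.6-fold (7.50 to 54.7) lower in Mrgprd neurons, where it had 5 UMIs.

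In Calca Trpv1 neurons 3 of the 14 genes were at least 2-fold higher and 3 lower, beside 4.72% and 6.29% of all genes. The higher ones were Cacng4, a gamma subunit gene that also serves AMPA receptors, which was 8.75-fold (5.93 to 13.2) higher, Stac, an adaptor of L-type channels, which was 2.79-fold (2.51 to 3.10) higher, and Rims2, an active zone protein that binds beta subunits, which was 2.30-fold (2.04 to 2.60) higher. The lower ones were Cacna1h, Rem2 and Stac2. Cacng4 was just above the minimum of 10 CPM over all neurons, at 10.4 CPM. Among the groups it reached 10 CPM only in Calca Trpv1 neurons, at 23.8 CPM against 2.72 in the other grouped neurons. Its higher call there and its lower calls in other groups are therefore not independent of the minimum. In Cd34 neurons 4 genes were higher and 3 lower, beside 3.43% and 7.54% of all genes. Stac2 was 5.92-fold (4.66 to 7.52) higher and Rims1 2.52-fold (2.17 to 2.91) higher there, while Rims2 was 2.58-fold (2.06 to 3.26) lower. In Nefh neurons 2 were higher and 1 lower, beside 4.22% and 6.88% of all genes. Rem2, a GTP-binding protein that binds beta subunits and reduces the current, was 7.64-fold (5.82 to 10.1) higher in Nefh neurons and 18.3-fold (7.74 to 57.0) lower in Calca Trpv1 neurons. It stood at 12.8 CPM over all neurons, and among the groups only Nefh neurons at 45.9 and Cd34 neurons at 24.2 CPM reached 10 CPM. The higher calls of Rem2 and its lower calls in the other groups are therefore not independent of the minimum. Cacng5 was 2.87-fold (2.34 to 3.50) higher in Nefh neurons.

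The genes past 2-fold higher and lower numbered 0 and 4 in Trpm8 neurons, 1 and 5 in Mrgprd neurons, 2 and 3 in Mrgpra3 neurons and 1 and 6 in Nppb neurons. Over all genes lower ratios also outnumbered higher ones in these groups, by the shares given above. Of the lower genes, 2 in Trpm8, 2 in Mrgprd, all 3 in Mrgpra3 and 5 in Nppb neurons rested on 3 or fewer UMIs in the group, and the intervals of Cacng4 in Mrgpra3 neurons and of Cacng4 and Cacng7 in Nppb neurons included no difference. Cachd1, a relative of the alpha2delta genes, was 2.93-fold (2.40 to 3.55) higher in Mrgprd neurons. Stac was 2.38-fold (1.78 to 3.13) higher in Nppb neurons and 2.29-fold (1.73 to 2.97) higher in Mrgpra3 neurons. Lrp1, a receptor that aids the trafficking of alpha2delta proteins, was at 12.4 CPM over all neurons and 3.28-fold (1.69 to 7.27) lower in Trpm8 neurons. Its ratio of 2.24 (1.01 to 4.33) in Mrgpra3 neurons rested on 9 UMIs. Cacng7 stood at 15.5 CPM over all neurons. Slc3a2, the heavy chain of the amino acid transporter that carries gabapentin, stood at 122 CPM and was within 2-fold in all groups. The light chain gene Slc7a5 was at 3.87 CPM, below the minimum. The thrombospondin genes Thbs1 to Thbs4 and Comp, which encode secreted ligands of alpha2delta proteins, were all below the minimum, at most at 6.31 CPM for Thbs3.

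The genes whose levels most resembled those of a member were found over the 7 groups, on log2 of CPM with 10 added, among 4048 genes with at least 50 CPM. With 7 points that share their libraries and differ in depth, the correlations are a description. They rank the likeness of pattern and not the size of the differences, and some of the genes listed were far more even than the member. Tax1bp1, near Cacna2d3, ranged only from 614 CPM in Calca Trpv1 to 857 CPM in Cd34 neurons. Rtf1, near Cacna2d1, ranged from 95.7 CPM in Nefh to 139 CPM in Calca Trpv1 neurons. Nearest to Cacna2d1 were Bex1 (r 0.95, rho 0.89), Syt4 (r 0.94, rho 0.86) and Rtf1 (r 0.93, rho 0.68). Syt4, a synaptotagmin of secretory vesicles, stood at 1169 CPM in Calca Trpv1 and 198 CPM in Nefh neurons. Nearest to Cacna2d2 were Fgf13 (r 0.97, rho 0.96), S100a6 (r 0.95, rho 0.96) and Chmp4b (r 0.95, rho 0.89). Fgf13, which encodes an intracellular partner of sodium channels, ranged from 579 CPM in Nefh to 2039 CPM in Nppb neurons. Nearest to Cacna2d3 were Tax1bp1 (r 0.97, rho 0.96), Usp14 (r 0.95, rho 0.89) and Fermt2 (r 0.95, rho 0.96). Fermt2, an integrin-binding protein, was at 520.2 CPM in Cd34 and 69.4 CPM in Calca Trpv1 neurons. Nearest to Cacnb1 were Mcl1 (r 0.98, rho 0.93), Sap30l (r 0.97, rho 0.96) and Ctxn1 (r 0.97, rho 0.93). Mcl1 encodes an inhibitor of apoptosis. For Cacnb2, which rests on 82 UMIs, the nearest were Rfk (r 0.96, rho 0.82), Necab1 (r 0.93, rho 0.96) and Ech1 (r 0.93, rho 0.96). For Cacnb3 they were Pfn1 (r 0.98, rho 1), Tmx3 (r 0.97, rho 1) and Serp2 (r 0.95, rho 0.96), of which Pfn1 encodes the actin-binding protein profilin. For Cacnb4 they were Mut (r 0.97, rho 0.96), Ddx1 (r 0.97, rho 0.93) and Map2k4 (r 0.96, rho 0.96), and the kinase gene Map2k4 ranged from 91.6 CPM in Nppb to 177 CPM in Mrgprd neurons.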

How the data were processed

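Trigeminal neurons of 9 Dropseq runs were measured, and the authors deposited 1 table of raw counts of UMIs per gene and barcode, not normalized. Per the labels and the paper's methods, reads were converted with bcl2fastq 2.17, aligned to mm10 with STAR 2.5.3a and analysed with Seurat 1.4.0.16, and barcodes with over 1000 transcripts were kept by the authors. The counting strand is not given in the sources used here. From these counts, pooled CPM and shares with exact 95% intervals were computed in Python 3.11.15 with NumPy 2.4.6 and SciPy 1.17.1. Ratios of pooled CPM carry exact intervals from the conditional binomial distribution, and a ratio of 2 was counted for genes with at least 10 CPM over all neurons. Thinning drew 1000 UMIs per barcode at random. With 1 pooled sample there are no replicates, p-values or SDs, and 3 counts were taken as the floor of a count of 0. The code for the ratios was tested on simulated data, which bears on the code and not on the calls.

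Barcodes that were not neurons were pooled when markers held at least 3% (glia: Mbp, Fabp7, Apoe), 20% (red blood: Hbb-bs, Hbb-bt, Hba-a1, Hba-a2, Alas2), 5% (pituitary: Gh, Prl, Pomc, Cga), 0.5% (olfactory: Omp, Stoml3) or 0.3% (endothelial: Cldn5, Ly6c1, Flt1) of their UMIs, limits chosen after the values were seen. Some further glial markers, and a planned setting that used one, are not reported here. Glia, red blood and endothelial barcodes had a UMI of at most 1 neuronal gene. The genes named are the members, the genes of the list of calcium channel complexes and the 3 genes nearest to each member by Pearson correlation over the 7 groups. The members and lists were chosen with earlier results of these data known. Sequences and positions are from GENCODE M21.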

Additional observations from a re-analysis of the deposited data

How the results depend on the processing

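Levels and called ratios were recomputed under 7 planned settings and 2 chosen after seeing the data, which left out the 3 neurons of each group with the most UMIs of the gene, or the neurons with a UMI of Mbp. Make-up was recomputed under these other than thinning, and Cacna2d3 in Cd34 neurons also without neurons rich in endothelial or pituitary markers, chosen after seeing the data. Of 442 recomputed group levels 372 stayed within the counting interval of the reported value, and of 448 make-up values 398 did. The settings differed in this. Thinning to 1000 UMIs moved 28 levels and left 21 within the interval, while all 49 stayed within it with 900 to 7500 genes. Among neurons that met exactly 1 rule 16 make-up values moved and 40 did not. Of the 9 member ratios past 2-fold, 8 stayed past it under all 9 settings, and Cacnb1 in Calca Trpv1 neurons fell to 1.77 under thinning. The fold of Cacnb4 in Nppb neurons ranged from 5.03 to 34.7, and no UMI was left under 2 settings. The share of Cacna2d1 among alpha2delta UMIs of grouped neurons was 66.9% as a mean over neurons and 68.0% in neurons that met exactly 1 rule, against 65.7%. Shares of neurons depend on depth. The share with any alpha2delta UMI was 74.4% over all neurons, 52.3% with 2 or more UMIs, 41.6% after thinning and 78.8% with 900 or more genes, and for the beta genes 64.6%, 39.9%, 30.3% and 69.4%. Ratios at least 2-fold higher over all genes numbered 2663, but 14739 with no minimum CPM, 817 with a minimum of 50 and 6884 at a fold of 1.5, and lower ones 6675, 45656, 1960 and 12027. For the members, 3 higher ratios became 5 with no minimum and 6 at a fold of 1.5, and 6 lower ones became 9 with no minimum, 13 at a fold of 1.5 and 10 as a mean over neurons. Among neurons that met exactly 1 rule, 4 member ratios were higher and 7 lower. No paired analysis was possible because the labels give 1 group and no result comes from a test. Leaving out a run was not possible because the columns name no run.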

Other observations

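In 74 endothelial barcodes 1 UMI of Cacna2d1 was the only UMI of the 7 genes. This pool was formed after the values were seen. Cacna2d4, with no UMI in neurons, had 9 UMIs in pituitary barcodes, 4.42 CPM (2.02 to 8.39), and Cacnb2 had 6 UMIs in olfactory barcodes, 34.3 CPM (12.6 to 74.6).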
